A study of Mus musculus with 20 samples.

Results

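Replication licensing is the loading of the replicative helicase onto DNA before S phase, and its genes were followed here as 10 of the 24411 genes in a count table of mouse kidney. The 10 genes were taken by name, with earlier results of these data known: Cdc6 and Cdt1, which load the helicase, Mcm2, Mcm3, Mcm4, Mcm5, Mcm6 and Mcm7, which are its subunits, and Mcm10 and Cdc45, which take part in its activation. All 10 passed the filter on low counts in every comparison.

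In G1, the origin recognition complex binds DNA and, with Cdc6 and Cdt1, places paired Mcm2 to Mcm7 rings at origins. Geminin blocks Cdt1 once S phase has begun, and Cdc45 and the GINS complex join the ring to form the moving helicase. Many of these genes are classic targets of the E2F transcription factors, and most cells of the adult kidney are out of the cell cycle.

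Kidneys from 20 mice were taken at P125 (in days after birth) and 1 library was made from each. There were 4 groups of 5 mice, mutants and controls of either sex, drawn from 3 litters (A, B and C). Mutants were Pkd2fl/fl; Pax8rtTA; TetOCre mice, in which doxycycline turns on Cre under a Pax8 promoter and deletes Pkd2 along the tubule: the promoter is active in the cells of proximal and distal tubules and of collecting ducts. Controls were littermates that carried the same floxed Pkd2 alleles but lacked Pax8rtTA or TetOCre. Mutants and controls alike received doxycycline at 50 mg/kg by i.p. injection from P27 to P29. Kidney weight to body weight (KBW, the weight of 1 kidney as a percentage of body weight) averaged 1.68 ± 0.338 in mutant males and 1.18 ± 0.261 in mutant females, against 0.692 ± 0.117 and 0.615 ± 0.0448 in control males and females (mean ± SD, n = 5 each).

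Libraries held 11307741 to 19324073 counts. The library of female mutant 4 stood apart: 14850 genes were detected in it, against 16776 to 17724 in the other 19, and 76 of its genes had exactly 1 count, against 708 or more in each of the others. It had the fewest counts, and its mouse had the lowest KBW of the mutants, 0.836, so results that rest on it are given with and without it. Levels are in CPM, counts relative to the TMM-scaled total of the library. Pkd2 checked the labels: it averaged 291 ± 31.1 CPM in male controls and 119 ± 9.87 CPM in male mutants (log2 fold change -1.32, adjusted p = 2.18e-05), and 257 ± 49.1 CPM in female controls and 145 ± 33.6 CPM in female mutants (log2 fold change -0.80, adjusted p = 0.0276). No mutant reached the level of a control of its sex.

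The starts of the licensing genes are shown because they are where E2F binding sites of this family are usually looked for. RefSeq promoters (GRCm38.p6, from 250 bases before to 50 bases after the annotated start) were at hand for 9 of the 10 genes, with 2 starts for Mcm7. They were searched on both strands for 3 8-letter E2F motifs, TTTGGCGC, TTTCGCGC and TTTCCCGC. At least 1 of them was found for 6 genes (Mcm3, Mcm5, Mcm6, Mcm7, Cdc6 and Cdt1) and for none of Mcm2, Mcm10 and Cdc45. Of the Mcm7 starts, 1 held 2 matches and the other held 0, and the stretches printed for Mcm7 are from the former. Among all 27025 genes in that table, 2.12% had at least 1 of the 3 in a promoter. Stretches before the start are printed 5′ to 3′ on the gene's own strand, with the motif in capitals. The starts are those of RefSeq, and the Mcm7 and Cdc6 stretches before them lie inside these genes as GENCODE M21 places them. A 100-base stretch of Mcm10, which holds no match, is given for comparison, while those of Mcm2 and Cdc45 are not printed. Of these genes without a match, Mcm2 was higher in male mutants (log2 0.88), and Mcm10 and Cdc45 did not pass, as given below. Whether matches and changes in level go together was not tested.
Mcm6, chr1:128359706-128359855, minus strand: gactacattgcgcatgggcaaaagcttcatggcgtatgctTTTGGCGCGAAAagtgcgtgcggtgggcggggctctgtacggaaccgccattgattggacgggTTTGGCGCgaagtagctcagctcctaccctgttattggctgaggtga
Mcm5, chr8:75109316-75109407, plus strand: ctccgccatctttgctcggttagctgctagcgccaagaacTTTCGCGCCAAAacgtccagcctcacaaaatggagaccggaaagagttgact
Mcm7, chr5:138172001-138172088, minus strand: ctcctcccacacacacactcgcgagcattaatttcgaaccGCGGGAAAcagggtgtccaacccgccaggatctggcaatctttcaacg
Cdc6, chr11:98907973-98908060, plus strand: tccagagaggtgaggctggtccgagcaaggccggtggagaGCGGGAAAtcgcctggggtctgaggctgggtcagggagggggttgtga
Mcm10, chr2:5012792-5012891, minus strand: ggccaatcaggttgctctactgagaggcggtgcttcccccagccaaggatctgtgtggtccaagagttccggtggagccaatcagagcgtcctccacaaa

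The Mcm6 stretch holds 3 matches, at 110, 106 and 47 bases before the start, the first pair overlapping on opposite strands. The Mcm5 stretch holds a similar overlapping pair at 153 and 149 bases before the start. There were 3 genes with a match just after the start, shown here with at most 30 bases each.
Mcm3, chr1:20820265-20820294, minus strand: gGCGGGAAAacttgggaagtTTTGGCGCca
Mcm7, chr5:138171849-138171878, minus strand: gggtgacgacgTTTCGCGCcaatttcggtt
Cdt1, chr8:122568036-122568064, plus strand: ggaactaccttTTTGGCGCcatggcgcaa

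A match is a run of letters and not evidence of binding, and the absence of a match holds only for this window. The Mcm10 window ends 7 letters into TTTGGCGC, so the next base, which is outside the window, would decide a match there.

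Cdc6 and Cdt1 are the loaders. Cdc6, an ATPase that recruits Cdt1 and the Mcm2 to Mcm7 ring to origins, had the lowest level per length of principal transcript among the 10 genes in all 4 groups. The 5 male controls had 0.220, 0.699, 0.827, 0.487 and 0.257 CPM, from 3 to 11 counts each, and the 5 male mutants had 2.21, 1.30, 3.54, 2.58 and 1.19 CPM. Every male mutant was above every male control, and the fitted fold was 3.85 (log2 1.94, SE 0.37, adjusted p = 0.00464). In males Cdc6 met the filter on low counts through the mutants (19 to 54 counts), the group where it was higher. Its call and its lack of overlap in males are therefore not independent of that filter. Female controls had 1.39, 0.982, 1.65, 0.834 and 1.29 CPM and female mutants 2.12, 2.998, 3.65, 1.98 and 1.18 CPM. Female mutant 5 fell within the controls, and the female difference (log2 0.94, SE 0.36, adjusted p = 0.167) did not pass. With both sexes fitted together, Cdc6 rose by 1.35 on the log2 scale (SE 0.28, adjusted p = 0.00135).

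Cdt1, the partner that delivers the ring and is held back by geminin, had 7.47, 5.97, 6.16, 6.66 and 7.27 CPM in male controls and 12.6, 12.1, 11.7, 5.61 and 9.54 CPM in male mutants. Male mutant 4 lay below all 5 male controls while the other 4 lay above them. Cdt1 did not pass in males (log2 0.66, SE 0.20, adjusted p = 0.0374), and without male mutant 4 it did (log2 0.77, adjusted p = 0.00583). Female controls had 4.88, 3.55, 4.95, 5.36 and 6.61 CPM and female mutants 7.98, 6.24, 9.83, 6.30 and 6.70 CPM, with the highest control among the mutants. The female difference did not pass (log2 0.59, SE 0.22, adjusted p = 0.159). In both sexes together Cdt1 rose (log2 0.62, SE 0.15, adjusted p = 0.00406). In bulk kidney, more cells that express a gene and more RNA per cell cannot be told apart, for Cdc6, Cdt1 and the genes that follow.

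All 6 helicase subunits rose in male mutants, with the largest estimates for Mcm3 and Mcm5. Mcm3 had 4.54, 4.45, 4.43, 4.14 and 3.02 CPM in male controls and 21.4, 9.57, 14.7, 14.5 and 8.58 CPM in male mutants, a fold of 3.34 (log2 1.74, SE 0.21, adjusted p = 0.000602). Female controls had 5.80, 5.35, 7.61, 5.42 and 4.63 CPM and female mutants 16.7, 13.7, 22.03, 10.2 and 10.1 CPM. Of the 10 genes, Mcm3 alone had every mutant of either sex above every control of either sex, as did 0.979% of all genes tested (139 of 14191). Its female fold was 2.57 (log2 1.36, SE 0.23, adjusted p = 0.0119), just short of the threshold of 0.01.

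Mcm5 closes the ring together with Mcm2, at the gate through which DNA enters. Male controls had 5.27, 4.77, 6.39, 4.47 and 5.92 CPM, and male mutants had 19.8, 13.0, 17.9, 12.5 and 11.01 CPM. The male groups did not overlap, and the fold was 2.79 (log2 1.48, SE 0.19, adjusted p = 0.000793). Female controls had 6.002, 5.46, 7.73, 5.18 and 5.24 CPM and female mutants 11.9, 13.1, 20.1, 9.40 and 7.70 CPM, with female mutant 5 level with the highest control. The female fold of 2.11 (log2 1.08, SE 0.24, adjusted p = 0.0295) did not pass.

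Mcm2, the partner of Mcm5 at that gate, had 11.9, 13.8, 13.4, 12.3 and 12.4 CPM in male controls and 28.1, 19.8, 30.4, 18.2 and 21.3 CPM in male mutants. The fold was 1.84 (log2 0.88, SE 0.15, adjusted p = 0.00316), with no overlap. Female controls had 13.1, 12.2, 15.04, 12.2 and 14.0 CPM and female mutants 18.9, 21.7, 24.8, 17.5 and 13.5 CPM. Female mutant 5 again sat among the controls (log2 0.55, SE 0.17, adjusted p = 0.0815).

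Mcm4, Mcm6 and Mcm7 form the catalytic core known from biochemistry, and their estimates were smaller than those of Mcm3 and Mcm5, a difference between genes that was not tested. Mcm4 ranged from 9.34 to 11.6 CPM in male controls and from 14.2 to 24.5 CPM in male mutants (log2 0.82, SE 0.15, adjusted p = 0.00442). Mcm6 ranged from 21.1 to 30.7 CPM in male controls and from 37.8 to 55.0 CPM in male mutants (log2 0.75, SE 0.13, adjusted p = 0.00355). Mcm7 ranged from 23.3 to 27.2 CPM in male controls and from 31.0 to 45.4 CPM in male mutants (log2 0.55, SE 0.11, adjusted p = 0.00654), the smallest change among the subunits. In none of the 3 did the male groups overlap. Female mutants ranged from 14.8 to 25.5 CPM for Mcm4, from 25.3 to 43.3 CPM for Mcm6 and from 23.5 to 45.4 CPM for Mcm7, and each of these ranges overlapped the controls. The female log2 differences were 0.60 (adjusted p = 0.0555), 0.46 (adjusted p = 0.0914) and 0.45 (adjusted p = 0.127).

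**Figure D1:**
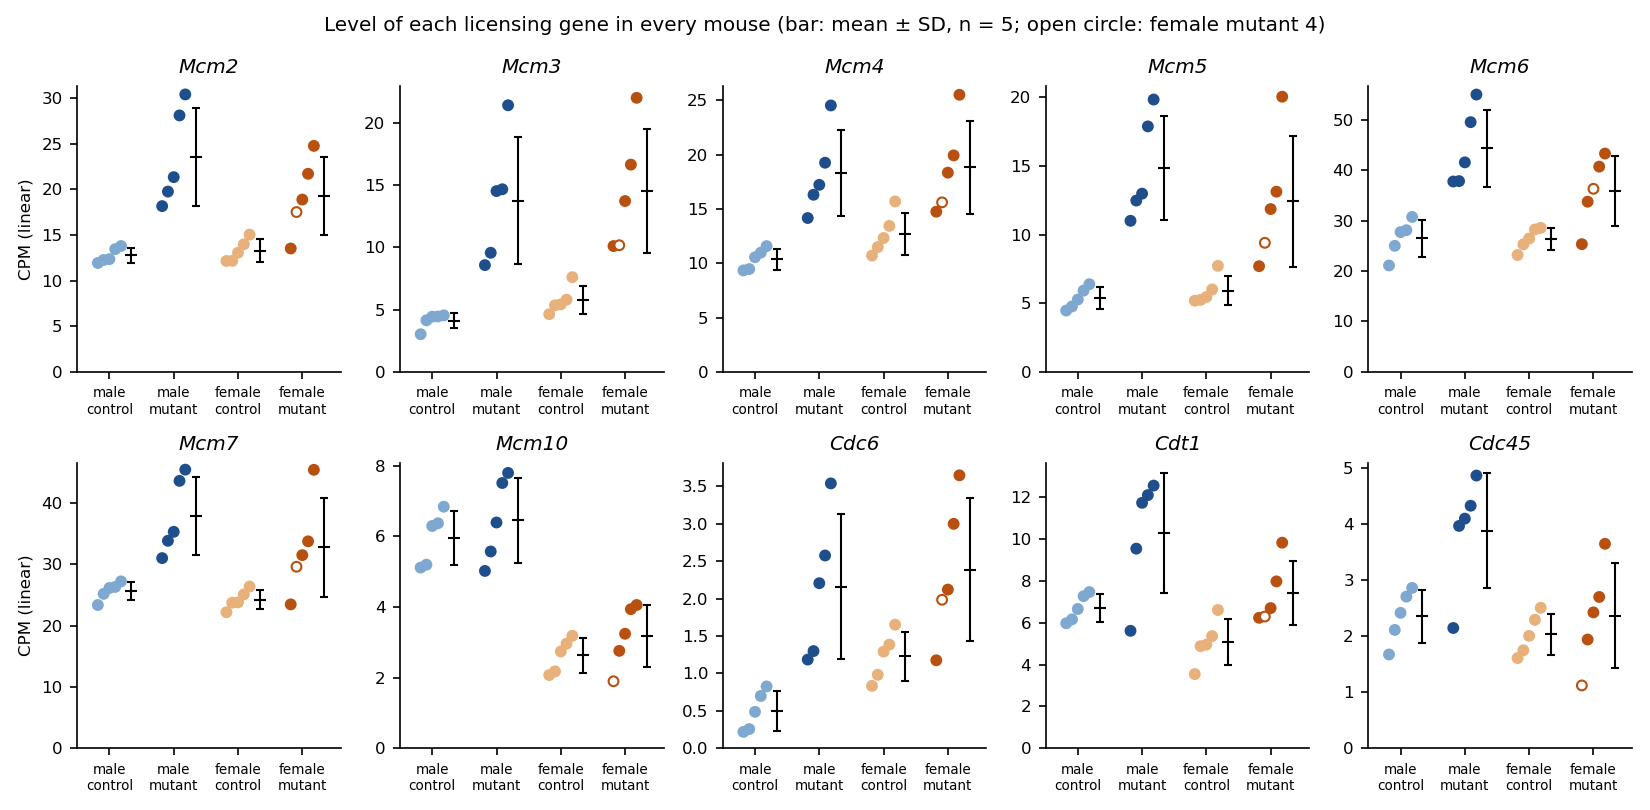
Level of each of the 10 genes in every mouse, in CPM on a linear axis from 0, by sex and genotype (points are mice, the bar beside them is the mean ± SD of 5, and the open circle is female mutant 4). Mutants sit above controls for the Mcm2 to Mcm7 subunits and Cdc6 in males, Mcm3 separates the genotypes in both sexes, and Mcm10 separates by sex.

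Mcm10 and Cdc45 act after loading. Mcm10, needed to activate the loaded ring, had 5.20, 6.29, 6.84, 5.11 and 6.37 CPM in male controls and 6.39, 7.79, 5.57, 5.02 and 7.51 CPM in male mutants. The male groups covered much the same range (log2 0.17, SE 0.14, adjusted p = 0.423). Female controls had 2.18, 2.07, 3.18, 2.74 and 2.96 CPM and female mutants 3.94, 2.76, 3.24, 1.90 and 4.06 CPM (log2 0.29, SE 0.27, adjusted p = 0.619). The joint estimate of 0.22 on the log2 scale (SE 0.13, adjusted p = 0.232) did not pass, and a rise of the size seen for Mcm3 lies far outside that error.

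Cdc45, which joins the ring with GINS, had 2.42, 2.86, 2.705, 2.11 and 1.67 CPM in male controls and 4.86, 3.97, 4.33, 4.10 and 2.15 CPM in male mutants. Male mutant 5 fell among the controls, and the difference did not pass (log2 0.72, SE 0.18, adjusted p = 0.0164). Female controls had 2.51, 2.29, 2.01, 1.61 and 1.75 CPM and female mutants 2.42, 2.698, 3.65, 1.12 and 1.94 CPM, where the lowest value was that of female mutant 4. The joint difference was 0.48 on the log2 scale (SE 0.18, adjusted p = 0.0590) with that library and 0.58 (SE 0.14, adjusted p = 0.00374) without it.

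Counted over the 10 genes, 7 rose and 0 fell in males, where 5.25% of all genes tested rose (736 of 14010). The 7 were the helicase subunits and Cdc6, and for the same 7 every male mutant was above every male control, as was the case for 8.75% of genes. Of these, Cdc6 met the filter on low counts through the mutants, where it was higher. In females edgeR called 0 of the 10, where 0.457% of genes rose. An unadjusted p under 0.05 was found for 8 of the 10, and for 20.6% of all genes tested. DESeq2 called 2 in females, Mcm3 and Mcm5, both higher, where 4.30% of genes rose by that test. For 1 of the 10, Mcm3, every female mutant was above every female control, against 3.73% of genes. With both sexes fitted together, 8 of the 10 rose, the male 7 and Cdt1, where 10.0% of genes rose (1421 of 14191). The median log2 fold change of the 10 was 0.78 in males, 0.57 in females and 0.66 in both, while over all genes tested it was -0.0020, -0.0029 and -0.012.

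The male count depended on which mouse was left out. The fits hold litter constant, so a mouse adds to the genotype difference only beside a littermate of its sex and the other genotype. Male control 4 was the only male control of litter B, so without it male mutants 3 and 4 dropped out as well. In litter C, male control 5 and male mutant 5 were the only males. The male count was 2 without male control 1 or without male control 4. It was 4 without male control 3 or without male mutant 3, and 8 without male mutant 4. The share of all genes that rose moved too: it was 2.26% without male control 1, 0.784% without male control 4, 1.93% without male control 3, 2.87% without male mutant 3 and 3.40% without male mutant 4. Mcm3 and Mcm5 passed in each of the 10 male fits that left out 1 mouse, while Mcm6 passed in 8, Mcm2 in 7, Mcm4 in 5, and Mcm7 and Cdc6 in 4 of them. The female count was 2, Mcm3 and Mcm5, without female mutant 4, where 4.68% of genes rose, and 0 without any other mouse. The joint count stayed between 7 and 9.

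**Figure D2:**
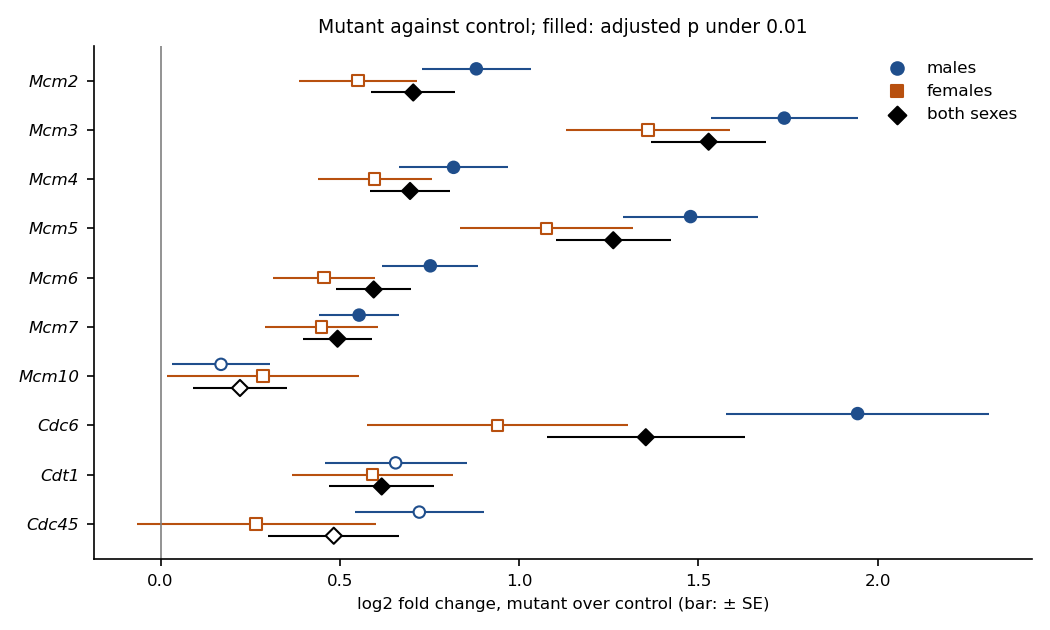
Log2 fold change of mutant over control for each gene, with its SE as a bar, in males (circles), females (squares) and both sexes together (diamonds); filled symbols have an adjusted p under 0.01. All 30 estimates lie above 0, 7 are filled in males, 0 in females and 8 in both, and Mcm10 lies nearest to 0 in males and in both.

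The male estimates were larger than the female ones for 9 of the 10 genes, all but Mcm10, and this difference was tested as a sex-by-genotype term. No gene of the 10 passed, nor did any of the 14820 genes tested (0%), with 618 genes and 0 of the 10 at an unadjusted p under 0.05. DESeq2 called 18 genes, none of them among the 10. The term was 1.04 on the log2 scale for Cdc6 (SE 0.53, unadjusted p = 0.0657), the largest of the 10, 0.41 for Mcm3 (SE 0.31) and -0.09 for Mcm10 (SE 0.27). With errors of this size, a weaker response of these genes in females was neither shown nor excluded. The size of difference that could have been detected was not worked out.

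Litter could be looked at within each sex, which gave 6 sets of littermates with 1 to 3 mutants and 1 to 3 controls each. Mutants had the higher mean log2 CPM in 6 of 6 sets for Mcm3 (differences of 1.10 to 1.79), Mcm4 (0.29 to 1.04), Mcm5 (0.54 to 1.71) and Cdt1 (0.02 to 0.91). The other 6 genes were higher in 5 of 6 sets. For Mcm2, Mcm6, Mcm7 and Cdc6 the exception was the female pair of litter C, with differences of -0.05, -0.17, -0.02 and -0.12. Its mutant is female mutant 5, with a KBW of 1.00.

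Between the sexes, Mcm10 was the gene called. It was higher in male than in female controls by 1.21 on the log2 scale (SE 0.19, adjusted p = 0.000542), a fold of 2.32, and it was 1 of the 10 called, where 17.8% of all genes tested differed in either direction between male and female controls. The lowest male control (5.11 CPM) was above the highest female control (3.18 CPM). The share of all genes that separate the sexes without overlap was not counted, in controls or in mutants. Mcm10 remained called without any 1 of the 10 control mice. Among mutants the difference was 0.94 (SE 0.21, adjusted p = 0.0142), and the lowest male mutant (5.02 CPM) was above the highest female mutant (4.06 CPM). None of the 10 genes was called among mutants, where 5.42% of genes differed, with 2 of the 10 at an unadjusted p under 0.05, against 30.5% of genes. DESeq2 called 1 of the 10, Mcm10, where it called 12.2% of genes. Without female mutant 4, edgeR called Mcm10 (log2 0.86, adjusted p = 0.00731) and 9.12% of genes.

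Cdc6 and Mcm3 leaned the other way in controls. Cdc6 was lower in male controls by a log2 difference of -1.41 (SE 0.41, adjusted p = 0.0212). Every male control was below every female control, on 3 to 11 counts per male library and 14 to 28 per female library. The share of all genes separated in this way was not counted. Cdc6 met the filter in this comparison through the female controls, the group where it was higher. For Mcm3 the difference was -0.46 (SE 0.16, adjusted p = 0.0508). Among mutants both were near 0, at -0.02 (SE 0.29) for Cdc6 and -0.11 (SE 0.25) for Mcm3. Neither difference passed in controls. The comparisons of mutants with controls and of males with females use the same mice, so a low male control level enters both the male fold of Cdc6 and its sex difference.

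Levels of different genes are compared only per length, as CPM per kilobase of the principal transcript in GENCODE M21 (GRCm38). In male controls Mcm6 and Mcm7 led, at 9.12 ± 1.26 and 8.65 ± 0.494 CPM per kb (SD, n = 5), with overlapping ranges. Mcm2 followed at 3.78 ± 0.241, then Cdt1 at 3.06 ± 0.300 and Mcm4 at 2.89 ± 0.269, these 2 overlapping. Mcm5 (1.59 ± 0.235), Mcm3 (1.36 ± 0.208), Mcm10 (1.23 ± 0.157) and Cdc45 (1.10 ± 0.222) each overlapped the next in order, and Cdc6 was last at 0.104 ± 0.0555. The subunits of the ring, which are needed in equal numbers, thus differed several-fold in mRNA per length in controls. In male mutants Mcm3 reached 4.54 ± 1.69 and Mcm5 4.39 ± 1.13 CPM per kb, overlapping Mcm4 at 5.10 ± 1.10. With the union of all exons as the length, Mcm7 and Mcm6 still led in male controls while Mcm2 dropped from place 3 to place 5. In female mutants that length put Mcm10 last, at 0.413 CPM per kb, just below Cdc6 at 0.456.

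After the group means were removed, the 6 subunits varied together from mouse to mouse. Pearson's r of log2 CPM over the 20 mice was 0.50 to 0.91 in the 15 pairs among Mcm2 to Mcm7, with a median of 0.74, and the closest pair was Mcm5 and Mcm7. Each gene was also set against the mean of the other 9. Mcm7 (r = 0.92) and Mcm5 (0.91) were most like the rest, followed by Mcm2 (0.83), Mcm3 (0.78), Mcm4 (0.77), Cdc45 (0.64), Mcm6 (0.63), Cdc6 (0.57) and Cdt1 (0.47). Mcm10 had r = 0.03. These are descriptions without a test, and values of 1 mouse share a library and its depth. Mutants and controls were pooled, and no r among other pairs of genes was taken for comparison. Without female mutant 4 the order was led by the same pair (0.94 and 0.91), and Mcm10 had r = -0.19.

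**Figure D3:**
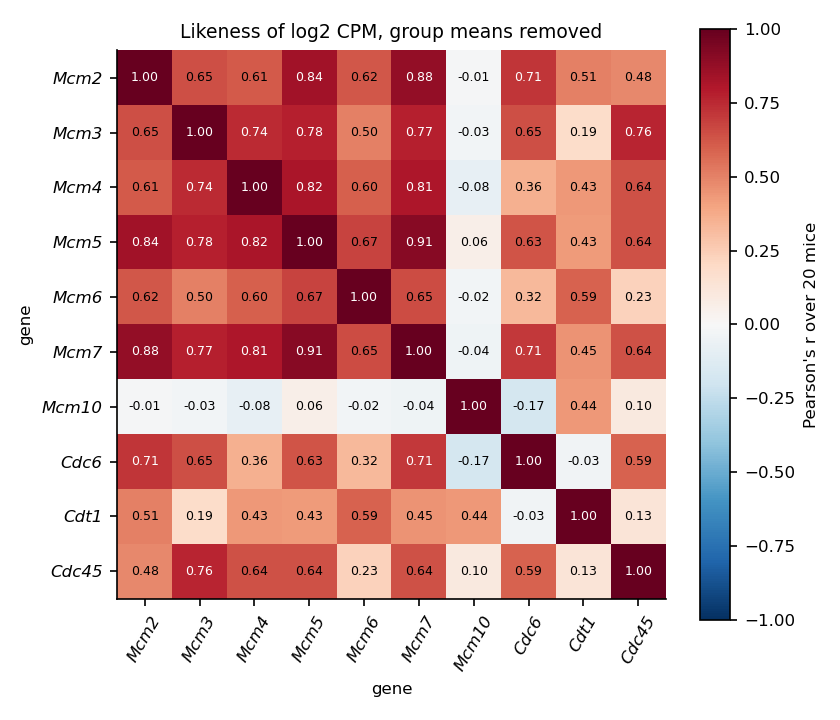
Pearson's r between the 10 genes in log2 CPM over 20 mice after removal of group means, from -1 (blue) to 1 (red). Mcm2 to Mcm7 form a block with r of 0.50 or more, and the row of Mcm10 is pale apart from Cdt1.

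Of genes outside the 10, those whose log2 CPM was most like the mean standardized level of the 10 over all 20 mice were C4b (r = 0.96), Bspry, B3gnt3, 2310022B05Rik, Uhrf1, Ccne1, Add1 and Anln (r = 0.93). C4b encodes a complement component, Uhrf1 a factor that maintains DNA methylation at replication, Ccne1 the S phase cyclin E1 and Anln a protein of the cleavage furrow. Once group means were removed, the 5 most alike were Lrrc25 (r = 0.94), Tgfbi, Pamr1, Fgr and Sdc1 (r = 0.89). Fgr is a kinase of myeloid cells and Tgfbi an extracellular matrix protein.

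The rest of the replication pathway moved unevenly. None of the 7 genes of the origin recognition complex and geminin rose in males, females or both, by edgeR or by DESeq2. Orc3 fell in males (log2 -0.30, SE 0.07, adjusted p = 0.00882), and by DESeq2 also in both sexes together, but in males it passed in 0 of the 10 fits that left out 1 mouse. In both sexes together the log2 differences were 0.62 for Orc1 (SE 0.26, adjusted p = 0.0860), 0.22 for Orc6, 0.12 for Orc2, 0.06 for Orc5, 0.02 for Gmnn, -0.05 for Orc4 and -0.19 for Orc3, with 3 of the 7 at an unadjusted p under 0.05 (1 in males, 0 in females). Over all genes tested that share was 37.7% in both, 33.7% in males and 20.6% in females. Without female mutant 4, female mutant 5 or female control 5, 1 of the 7 was called in both. Their median of 0.06 was near that of all genes.

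Genes that share the MCM name but do not encode subunits of the Mcm2 to Mcm7 ring gave no calls. Of Mcm8, Mcm9, Mcmbp and Mcm3ap, edgeR and DESeq2 called 0 in males, females or both, and 0 had an unadjusted p under 0.05. Their joint median was 0.03, and the smallest change was that of Mcm8, a helicase of recombination repair (log2 -0.04).

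Among helicase activation genes, 4 of 11 tested rose in both sexes together, 2 of 10 in males and 0 of 11 in females, with 5 of the 11 at an unadjusted p under 0.05 in females and 2 called there by DESeq2. Gins2, a GINS subunit, rose most (log2 1.39, SE 0.19, adjusted p = 4.91e-05), then Wdhd1, which ties the helicase to polymerase alpha (0.98, adjusted p = 4.77e-05), and Dbf4, the activator of the Cdc7 kinase (0.68, adjusted p = 0.00235). Gins4, of the same complex as Gins2, was at 0.0021 on the log2 scale. The joint median was 0.41. For this and the lists that follow, 10.0% of all genes tested rose in both sexes together, 5.25% in males and 0.457% in females. The share at an unadjusted p under 0.05 was 37.7%, 33.7% and 20.6% in the same order. In females DESeq2 called 4.30% of genes higher.

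Of 22 fork and polymerase genes, 9 rose in both sexes together, 4 in males and 0 in females, where 9 had an unadjusted p under 0.05 and DESeq2 called 3. Clspn, a checkpoint mediator at forks, rose by 2.15 on the log2 scale (SE 0.29, adjusted p = 4.19e-05), Pole, the leading-strand polymerase, by 1.12 (adjusted p = 0.0041), and Lig1, which seals Okazaki fragments, by 1.05 (adjusted p = 6.53e-05). Rfc1, of the clamp loader, was at 0.01. Of 6 nucleotide supply genes, 3 rose in both, 2 in males and 1 in females: the ribonucleotide reductase subunits Rrm2 (1.37) and Rrm1 (0.87), and thymidine kinase Tk1 (0.77), while Tyms was at -0.05.

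Of 13 genes of G1 to S control, 6 rose in both sexes together, 5 in males and 1 in females. The largest joint changes were those of E2f8 (2.03), a repressor of the E2F family, Ccna2 (1.89), cyclin A2, and Ccne1 (1.73), while E2f3 was at -0.08. For comparison, all 10 mitotic genes rose in males and in both and 4 in females. Their joint median of 2.15 exceeded the 0.66 of the licensing genes, with Bub1 at 2.59, Aurkb at 2.42, Top2a at 2.37 and Cenpe, the smallest, at 1.36. Controls summed to 23.9 ± 3.83 CPM (males) and 23.3 ± 5.97 CPM (females) over those 10, against 100.3 ± 4.67 and 99.2 ± 6.35 CPM over the licensing genes. The sums are not scaled by length, so only groups can be compared within a list. Mutants reached 118 ± 50.0 and 89.3 ± 43.8 CPM for the mitotic genes and 175 ± 33.3 and 149 ± 33.96 CPM for the licensing genes. Counts within 1 sex depended on the mouse left out in these lists too. Leaving out female control 1 also took female mutant 1 out of the comparison, since they were the only females of litter A. Without male control 4, 5 of the 10 mitotic genes, 2 genes of G1 to S control and 0 fork genes were called in males, where 187 of all 14161 genes were called. Without female mutant 4, 10 mitotic genes, 2 of G1 to S control, 3 of nucleotide supply and 3 fork genes were called in females, against 0 of each without female control 1. Over all genes, 866 of 14595 were called without female mutant 4 and 5 of 14620 without female control 1. In both sexes together the counts stayed at 10 mitotic genes, 6 of G1 to S control and 3 of nucleotide supply whichever mouse was left out, and at 8 to 11 fork genes and 3 to 6 helicase activation genes, the 6 without female mutant 4. Helicase activation genes called in males numbered 0 without male control 4, and 0 without male control 1, where 518 of all 14156 genes were called.

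**Figure D4:**
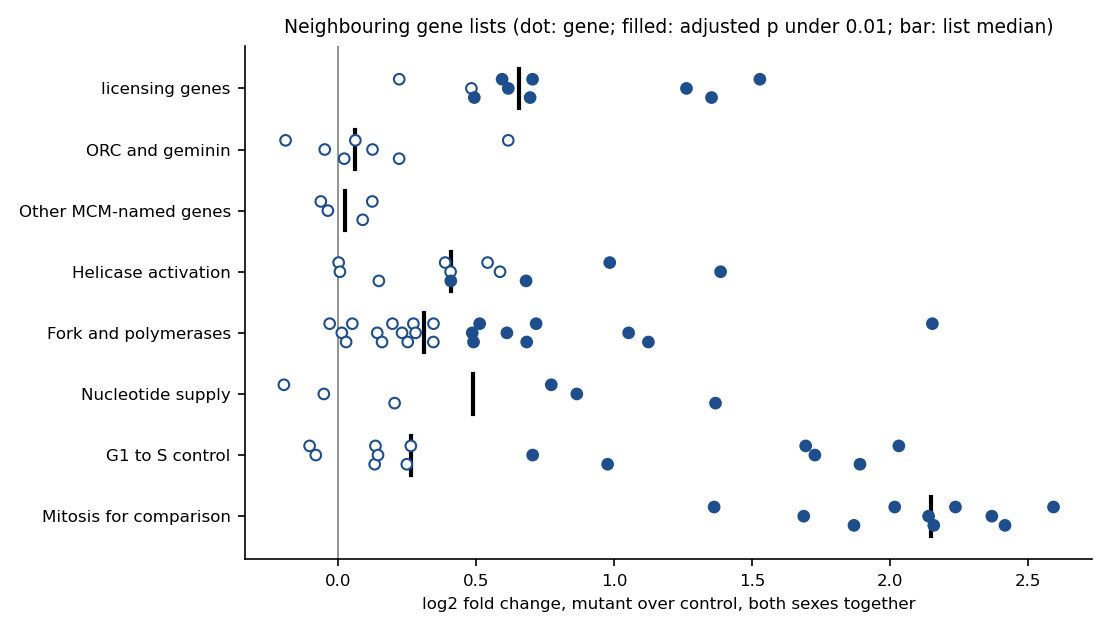
Log2 fold change of mutant over control in both sexes together for each tested gene of 8 lists (filled dots have an adjusted p under 0.01, bars are list medians). The licensing genes have a median of 0.66 and the mitotic genes 2.15, while the origin recognition complex with geminin (0.06) and the other MCM-named genes (0.03) stay near 0.

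Markers of several other cell types rose in mutants. Macrophage markers (5 of 5 higher in both, 4 of 5 in males, 0 of 5 in females) summed to 90.5 to 105 CPM in male controls, 131 to 301 CPM in male mutants, 115 to 148 CPM in female controls and 117 to 413 CPM in female mutants. Fibroblast and myofibroblast markers (3 of 6 higher in both and in males, 0 of 6 in females) summed to 135 to 184, 261 to 799, 197 to 309 and 317 to 1089 CPM in the same order. Injured tubule markers (4 of 4 higher in males and both, 1 of 4 in females) summed to 3.98 to 7.81, 60.4 to 507, 3.06 to 8.02 and 21.4 to 342 CPM. Lymphocyte markers summed to 4.17 to 6.82, 4.85 to 8.78, 4.48 to 7.78 and 1.12 to 14.5 CPM, with 0 of 4 called in both by edgeR or DESeq2 and 1 of them at an unadjusted p under 0.05. Without female mutant 4, 2 lymphocyte markers were called in both and 2 in females. With all mice, all 5 macrophage and 3 of 6 fibroblast markers had an unadjusted p under 0.05 in females, and DESeq2 called 2 and 3. Macrophage markers called in males numbered 0 without male control 4, and without female mutant 4 the female counts were 4 of 5 macrophage, 3 of 6 fibroblast and 4 of 4 injured tubule markers. The part of these cells in the levels of the licensing genes was not tested.

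The tissue itself read as kidney in every group. Proximal tubule markers summed to 5095 CPM or more in each library, with 0 of 5 called (2 at an unadjusted p under 0.05 in both, 0 by DESeq2), and 1 called in both without female mutant 4. In both sexes together, 2 of 2 thick ascending limb markers, 1 of 2 collecting duct markers and 2 of 2 podocyte markers fell, with 0 of the collecting duct markers called without male control 4. Of 4 endothelial markers 1 rose in males and 0 were called in both, where 3 had an unadjusted p under 0.05 and DESeq2 called 0. Over all genes tested in both sexes together, 37.7% had an unadjusted p under 0.05 and 831 of 14191 fell. Of the erythroid markers Hba-a1 and Hbb-bs are listed at 0 in all libraries and Alas2 fell in mutants in males, in females and in both.

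Reads of neighbours could enter 3 of the 10 genes, since the counting and its use of strand are not given in the sources used here. In GENCODE M21, Mcm7 (chr5:138164583-138172422, minus strand) overlaps Ap4m1 by 421 bases and Cops6 by 64 bases on the opposite strand and holds the miRNA genes Mir25, Mir93 and Mir106b. Cdc45 (chr16:18780447-18811987, minus strand) overlaps Ufd1, named Ufd1l in the count table, by 209 bases, and Cdt1 (chr8:122568015-122573554, plus strand) lies inside the readthrough gene Gm20388. The partners were chosen for their position after values had been seen, and none was called in both sexes together: Ap4m1 had a log2 difference of -0.20, Cops6 -0.15 and Ufd1l -0.03. Mcm4 (chr16:15623897-15637400, minus strand) starts 465 bases from Prkdc, a repair kinase gene that runs the other way, and Prkdc was at -0.02 (SE 0.11, adjusted p = 0.933) where Mcm4 rose by 0.70.

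KBW was compared with each gene among the 10 mutants, since it tells how far the kidneys had enlarged. Pearson's r of log2 CPM with KBW was 0.77 for Mcm2 (rho 0.75), 0.75 for Mcm6 (rho 0.67), 0.73 for Cdc45 (rho 0.73), 0.73 for Mcm5 (rho 0.59), 0.72 for Mcm7 (rho 0.67), 0.64 for Mcm10 (rho 0.50), 0.62 for Cdt1 (rho 0.46), 0.52 for Mcm3 (rho 0.44), 0.50 for Mcm4 (rho 0.39) and 0.28 for Cdc6 (rho 0.43). Of the 10, 9 exceeded 0.5, as did 12.8% of the 14820 genes tested. Permutation p-values (two-sided, 100000 resamples) were 0.00941 for Mcm2, the lowest, and 0.427 for Cdc6, the highest. For rho they were 0.0177 for Mcm2 and 0.263 for Mcm4, the highest. Adjusted over all genes, that of Mcm2 was 0.18 for r and 0.303 for rho. No gene of the 14820 passed for r, where 15.1% of genes and 6 of the 10 had an unadjusted p under 0.05. The permutations did not hold sex or litter constant, so a difference between male and female mutants enters these p-values.

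These relations rested in part on the ends of the range. Without the 2 mice farthest from the median KBW, male mutant 1 and female mutant 4, r stayed above 0.5 for Mcm2 (0.75), Mcm6 (0.73), Mcm7 (0.63) and Mcm5 (0.56), and was 0.41 for Cdc45, 0.40 for Cdc6, 0.37 for Mcm10, 0.36 for Cdt1, 0.18 for Mcm3 and 0.12 for Mcm4. Leaving out male mutant 5 alone gave 0.75 for Mcm3 and 0.70 for Mcm4, and leaving out male mutant 1 alone gave 0.31 and 0.25. Without female mutant 4 alone, r was 0.45 for Mcm10, 0.59 for Cdc45 and 0.82 for Mcm6. KBW was also higher in male mutants, and with sex means removed r was 0.81 for Mcm3, 0.75 for Mcm4, 0.72 for Mcm2 and Mcm5, and 0.16 for Mcm10. Each sex held 5 mutants and each litter 2 to 5, too few for a correlation within them.

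A fit of the counts on KBW with a term for sex gave a rise of 1.36 log2 units per percentage point of KBW for Mcm3 (SE 0.32, adjusted p = 0.0481), 1.07 for Mcm5 (SE 0.35, adjusted p = 0.107) and 0.04 for Mcm10 (SE 0.43, adjusted p = 0.965). None of the 10 was called and none of the 14416 genes tested (0%), with 6 of the 10 and 22.3% of genes at an unadjusted p under 0.05. DESeq2 called 4.04% of genes and 1 of the 10, Mcm3. With litter as a further term edgeR called 10 genes, and 0 of the 10 licensing genes. All 10 slopes were above 0, with a median of 0.75 against -0.06 over all genes. Without female mutant 4, edgeR gave slopes of 1.38 for Mcm3 (adjusted p = 0.143), 1.08 for Mcm5 (adjusted p = 0.223) and -0.29 for Mcm10 (adjusted p = 0.749).

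**Figure D5:**
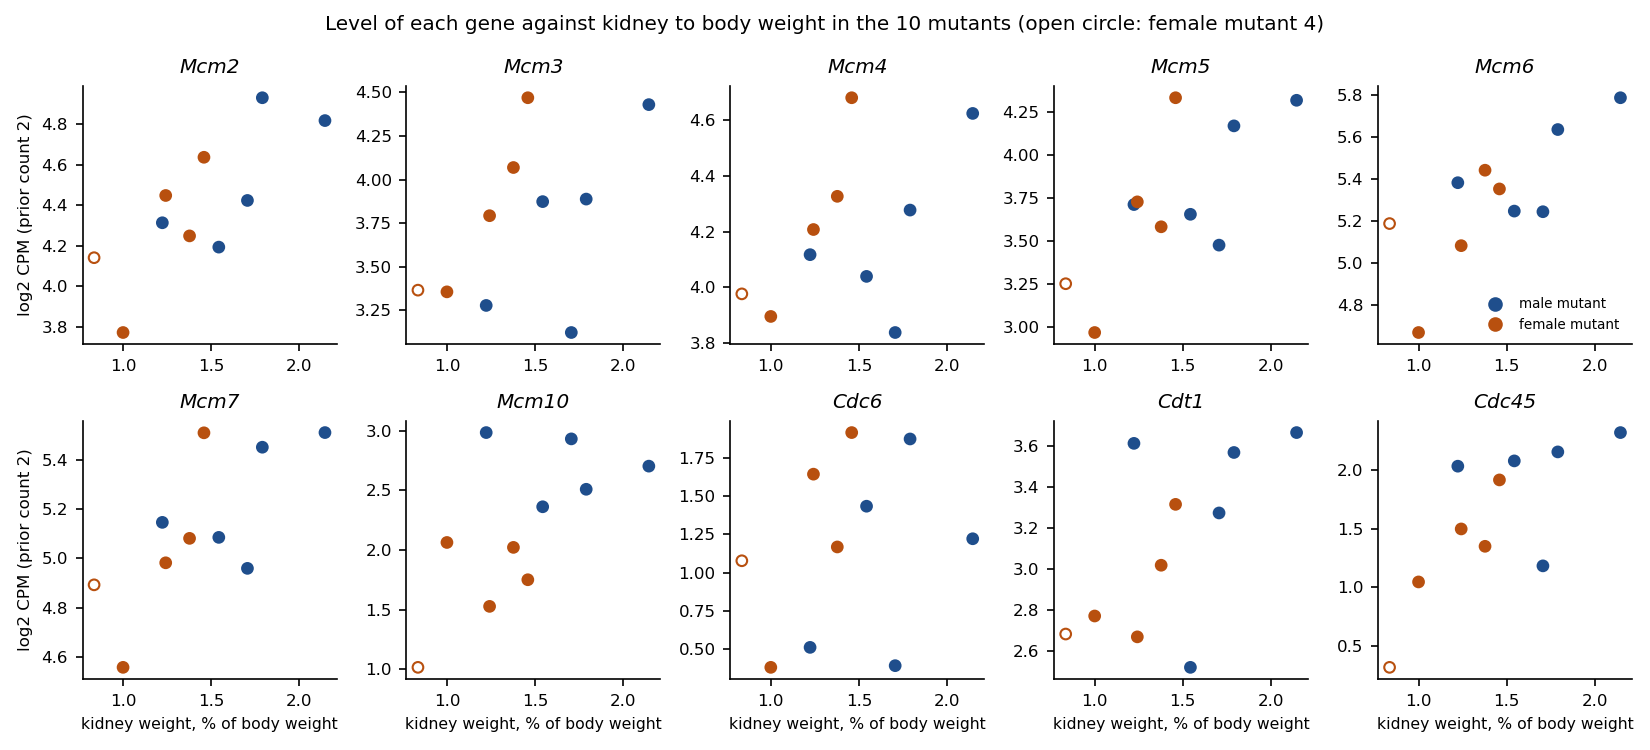
Log2 CPM (prior count 2) of each gene against KBW, in percent of body weight, in 5 male and 5 female mutants (open circle, female mutant 4). Levels tend to be higher at higher KBW, with r from 0.28 for Cdc6 to 0.77 for Mcm2, and for Mcm10 the male points lie above the female points.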

How the data were processed

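Kidney RNA from each of 20 mice was sequenced. The submitters' processing notes list fastp 0.23.2, STAR 2.7.10b and the mm10 build. The deposited values are raw counts per gene symbol made by the authors. The counting tool, its annotation and its use of strand are not given in the sources used here. A deposited text copy of the series record held no measurements and was not used.

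Counts were tested in R 4.3.3 with edgeR 4.0.16: filterByExpr, TMM scaling and the quasi-likelihood test, Benjamini-Hochberg adjusted over all genes tested, with genes called at an adjusted p under 0.01. Litter was a covariate, and in fits of mutants and controls of both sexes the 6 groups of sex and litter were. The fit on KBW had a term for sex. CPM used TMM library sizes, and log2 CPM a prior count of 2. Total counts of 11307741 to 19324073 per library limit precision for low genes such as Cdc6. Scripts were checked on simulated data.

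DESeq2 1.42.0, RLE size factors, no filter, no litter term, an adjusted p under 0.05, 1 fit of all mice, the fit on KBW with no sex term or with sex and litter, and leaving out each mouse were alternatives. Correlations with KBW used permutation tests with 100000 resamples, which shuffled KBW over all 10 mutants without regard to sex or litter. The labels do not say that mice of a group are independent beyond litter. The fits set each difference against the spread among these mice that their covariates leave, and their p-values treat the mice as independent.

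The 10 genes and all lists were chosen with earlier results of these data known. Genes named from each list are the 3 with the largest change among those called in both sexes together and the 1 with the smallest change. Every gene of the origin recognition complex and geminin is named. The genes most alike in pattern are the 8 with the highest r over 20 mice and the 5 with the highest r once group means are removed. The likeness without female mutant 4 was added after the data were seen. Positions come from GENCODE M21 and promoter sequences from RefSeq (GRCm38.p6).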

Additional observations from a re-analysis of the deposited data

Results flagged for a closer look

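Of 40 sets of 5 values (10 genes in 4 groups), 1 held a mouse apart from the others by Dixon's test at the 95% level, where chance alone flags about 1 in 20 sets. It was Mcm3 in male control 5, at 3.02 CPM, below the next lowest male control at 4.14 CPM. Without this mouse the male difference of Mcm3 still passed.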

How the results depend on the processing

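No paired analysis was possible because the replicate numbers only follow accession order and the labels carry none; litter is a term of the fits. In females, where edgeR called 0 of the 10 genes, 2 were called with DESeq2, at an adjusted p under 0.05 and with all mice in 1 fit, and 1 without the filter and without the litter term. Over all genes, these settings called 6.05%, 5.48%, 5.78%, 1.19% and 1.19%. Between the sexes, an adjusted p under 0.05 gave 2 in controls (29.8% of genes), and DESeq2 (12.2% of genes) or that threshold (14.6%) gave 1 in mutants. For the slope on KBW, DESeq2 (4.04% of genes) and an adjusted p under 0.05 (2.52%) each gave 1. Leaving out 1 mouse gave 2 to 8 genes in males, 0 to 2 in females, 7 to 9 in both sexes, 1 to 1 between control sexes, 0 to 1 between mutant sexes, and 0 to 0 for the sex-by-genotype term and the slope.

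Some log2 values near 0, none of them called, changed sign when 1 mouse was left out. For the sex-by-genotype term the ranges were -0.020 to 0.29 for Mcm7, -0.21 to 0.059 for Mcm10 and -0.040 to 0.26 for Cdt1. Between control sexes they were -0.25 to 0.025 for Mcm5 and -0.016 to 0.073 for Mcm6. Between mutant sexes they were -0.26 to 0.042 for Mcm3, -0.14 to 0.035 for Mcm4 and -0.14 to 0.066 for Cdc6. For the slope, Mcm10 ranged from -0.29 to 0.53. Depth limits Cdc6 most, with 3 to 11 counts in male controls.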
